A study of Mus musculus with 12 samples.

Results

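Transcript levels of 10 transcription factors of the natural killer (NK) cell lineage were followed in 2 mouse NK lines, KY-2 and KY-1, each with and without raised Myb. The 10 genes, Tbx21, Eomes, Zeb2, Gata3, Id2, Nfil3, Tox, Prdm1, Runx3 and Bach2 are a list of NK lineage regulators, taken by name out of 19938 genes measured. The rule uses no measured value, but the list was drawn up with earlier results of these data known. Each was read by 1 probe set that the annotation assigns to that gene alone, so all 10 were tested.

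Every group was a culture of a p53KO mouse NK cell line grown in human IL-15, the cytokine that keeps NK cells alive, and transduced cells were sorted for green fluorescent protein (GFP) before total RNA was hybridised to 1-colour Affymetrix arrays. The groups were KY-2 with GFP-P2A-FLAG-Myb (3 arrays), KY-2 with GFP (2 arrays), KY-1 with GFP-P2A-FLAG-Myb (4 arrays) and KY-1 with GFP (3 arrays). In the Myb vector a P2A peptide separates GFP from a FLAG-tagged Myb, a transcription factor best known from blood progenitors, and the series belongs to a study of how Myb and microRNA-15/16 bear on NK cell maturation. The promoter of the vector is not given in the sources used here, each line stands for 1 source of cells, and both the Myb and the GFP cells lacked p53. Whether the replicates are separate cultures is not in the labels, so the p-values reflect the scatter among these samples alone, and that scatter may be technical.

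In NK cells these factors act in layers. Nfil3, Id2 and Tox support the making of NK cells from lymphoid progenitors, Id2 by binding E proteins and keeping them from DNA. The T-box factors T-bet (Tbx21) and Eomes drive maturation and the cytotoxic and interferon programmes, with Zeb2 acting with T-bet late in maturation, while Gata3, Prdm1 (Blimp-1), Runx3 and Bach2 tune homeostasis, effector genes and restraint of differentiation.

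Each value is the log2 of a probe set's summarised array signal, so 1 unit is a doubling of that signal. Array medians lay between 5.31 and 5.42, and the files carry no detection calls, so a level below these medians is given as a low reading and not as absence. In these bulk samples fewer cells of a type and less RNA per cell cannot be told apart. KY-1 Myb arrays 3 and 4 and KY-1 GFP arrays 1 and 2 were closer to each other than separate samples were: the robust SD of their log2 differences was 0.0434 to 0.0469, against 0.102 to 0.172 for the other pairs within a group. Each such pair was averaged and counted as 1 replicate, which left 3 Myb and 2 GFP replicates in each line. Myb itself averaged 9.74 ± 0.07 (SD, n = 3) in KY-2 with the Myb vector, against 5.05 ± 0.07 (SD, n = 2) with GFP, and 9.57 ± 0.02 (SD, n = 3) in KY-1 with the Myb vector, against 7.99 ± 0.07 (SD, n = 2) with GFP. The readings differed 25.7-fold in KY-2 and 2.99-fold in KY-1, and the direction fitted the labels of all arrays. The KY-2 GFP readings of Myb lay below the array medians, with no measured background, so the 25.7-fold is a ratio of readings that may understate the RNA difference.

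The 10 factors covered most of the signal range of the arrays. Id2 was read between 10.99 and 11.86 over all arrays, and Tox, Runx3 and Nfil3 between 8.70 and 9.71. Tbx21 lay between 7.50 and 8.65. Eomes and Zeb2 stood above the array medians in every KY-2 array and below them in every KY-1 array. Bach2, a repressor that holds lymphocytes in a less differentiated state, lay between 3.53 and 4.13, below the medians in all 12 arrays.

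**Figure D1:**
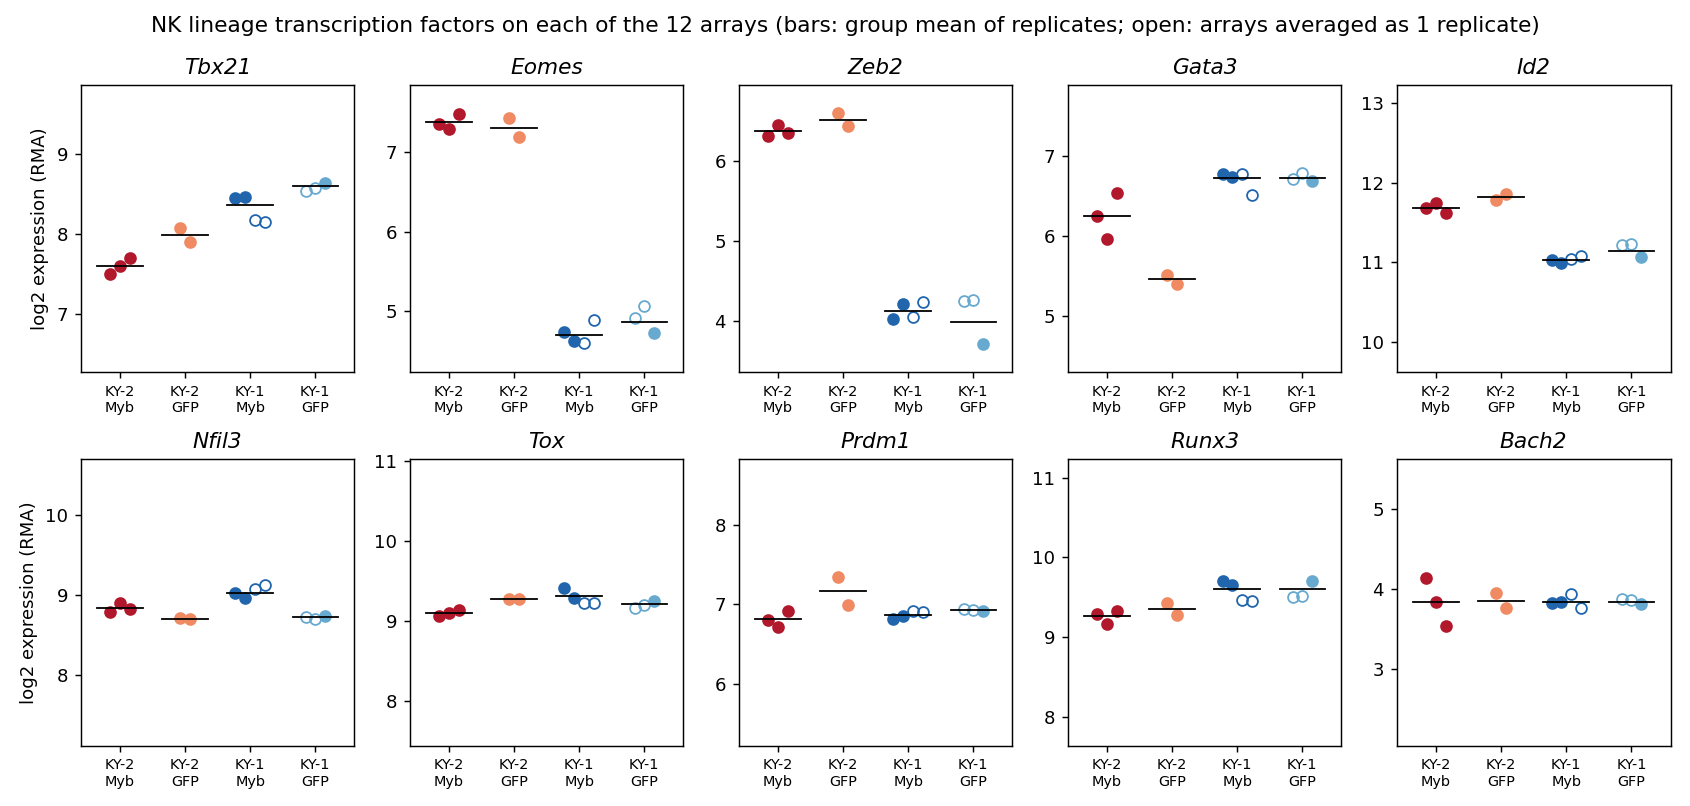
Log2 expression of the 10 factors in every array, 1 panel per gene, with the groups KY-2 Myb, KY-2 GFP, KY-1 Myb and KY-1 GFP from left to right. Points are arrays (open where averaged as 1 replicate) and bars are group means over replicates. Eomes and Zeb2 separate the lines, and Gata3 is lowest in the 2 KY-2 GFP arrays.

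The first question was whether raised Myb moved these factors within each line. In KY-2, Gata3 rose 1.73-fold, and the other 9 factors did not pass the test (limma, Benjamini-Hochberg adjusted p under 0.05 over all genes). That is 1 of 10 factors, where 2.83% of all genes were called in this comparison and 1.28% were called higher. In KY-1 none of the 10 was called, against 1.22% of all genes, and 1 of the 10, Nfil3, had an unadjusted p under 0.05. At that unadjusted level KY-2 had 3 of 10 (Gata3, Tbx21 and Prdm1), where 13.2% of all genes in KY-2 and 11.0% in KY-1 lay under it. The median difference of the 10 factors was -0.12 in KY-2 and -0.00 in KY-1 on the log2 scale, against 0.01 and -0.00 over all genes.

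Gata3, a zinc finger factor needed for innate lymphoid cell development and for the thymic and homeostatic branches of NK cells, was read at 6.25, 5.96 and 6.54 in the KY-2 Myb arrays, against 5.51 and 5.40 in the KY-2 GFP arrays. All 3 Myb arrays lay above both GFP arrays, and the Myb arrays were also spread more widely, with a mean of 6.25 ± 0.29 (SD, n = 3) against 5.46 ± 0.08 (SD, n = 2). The KY-2 GFP readings lay close to the array medians of 5.31 to 5.42, with no measured background. The 1.73-fold is thus a ratio of readings that may understate the RNA difference. The difference was 0.79 ± 0.14 (SE) on the log2 scale, with a 95% interval of 0.49 to 1.10 and a limma adjusted p of 0.00978. In KY-1, Gata3 was read at 6.78, 6.74, 6.78 and 6.51 with Myb, against 6.72, 6.78 and 6.69 with GFP. Those groups overlapped, and their means differed by 0.00 ± 0.14 (SE), with a 95% interval of -0.30 to 0.30. The KY-2 Myb arrays stayed below both KY-1 groups, apart from the highest KY-2 Myb array at 6.54, which lay just above the lowest KY-1 Myb array at 6.51. The KY-2 call rested on both GFP arrays: without KY-2 GFP replicate 1 the adjusted p was 0.0749, and without KY-2 GFP replicate 2 it was 0.0936, with differences of 0.85 and 0.74.

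The stretch just before the Gata3 start, the 250 bases at chr2:9878601-9878850 of GRCm38.p6 (minus strand, read 5′ to 3′), is shown because Gata3 was the factor that passed the test for Myb. It lies within the span of the Gata3 gene in the RefSeq annotation (chr2:9857078-9887953), which begins further upstream. Capitals would mark matches to the Myb, GATA, Runx and E2-box motifs spelled out further on, and this window held none.

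Gata3: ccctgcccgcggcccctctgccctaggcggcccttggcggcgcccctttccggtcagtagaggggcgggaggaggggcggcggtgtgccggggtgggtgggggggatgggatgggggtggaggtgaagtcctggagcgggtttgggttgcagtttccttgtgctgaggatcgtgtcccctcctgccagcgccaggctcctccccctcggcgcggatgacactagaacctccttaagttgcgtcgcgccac

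The T-box pair did not pass the test for Myb. Tbx21, which encodes T-bet, was read at 7.50, 7.59 and 7.70 in the KY-2 Myb arrays, against 8.07 and 7.90 in the KY-2 GFP arrays. In KY-1 it was read at 8.46, 8.46, 8.18 and 8.16 with Myb, against 8.54, 8.58 and 8.65 with GFP. Myb arrays lay below GFP arrays in both lines without overlap, by -0.39 ± 0.11 (SE) in KY-2 and -0.24 ± 0.11 (SE) in KY-1, with adjusted p of 0.114 and 0.463 in limma. Eomes was read at 7.36, 7.28 and 7.47 in the KY-2 Myb arrays, against 7.42 and 7.18 in the KY-2 GFP arrays, and at 4.74, 4.63, 4.61 and 4.90 in the KY-1 Myb arrays, against 4.92, 5.07 and 4.73 in the KY-1 GFP arrays. Its groups overlapped within each line, and the 95% intervals of the Myb difference were -0.17 to 0.31 in KY-2 and -0.40 to 0.08 in KY-1.

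Zeb2 is a zinc finger repressor that acts with T-bet late in maturation. It was read at 6.32, 6.46 and 6.36 in the KY-2 Myb arrays, against 6.61 and 6.44 in the KY-2 GFP arrays. In KY-1 its readings were low, at 4.02, 4.21, 4.05 and 4.24 with Myb, against 4.25, 4.27 and 3.71 with GFP. The Myb and GFP groups overlapped in both lines. The Myb differences were -0.15 ± 0.14 (SE) in KY-2 and 0.14 ± 0.14 (SE) in KY-1.

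Among the early factors, Nfil3, a basic leucine zipper factor required for NK cell development, was read at 8.79, 8.90 and 8.83 in the KY-2 Myb arrays, against 8.71 and 8.70 in the KY-2 GFP arrays. In KY-1 it was read at 9.03, 8.96, 9.08 and 9.13 with Myb, against 8.73, 8.70 and 8.73 with GFP. Every Myb array lay above every GFP array of its line. The difference was 0.13 ± 0.08 (SE) in KY-2 and 0.31 ± 0.08 (SE) in KY-1, with adjusted p of 0.545 and 0.110 in limma, so neither passed the threshold.

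Id2, the inhibitor of E proteins, was read at 11.69, 11.75 and 11.63 in the KY-2 Myb arrays, against 11.79 and 11.86 in the KY-2 GFP arrays, and at 11.03, 10.99, 11.04 and 11.08 in the KY-1 Myb arrays, against 11.21, 11.23 and 11.06 in the KY-1 GFP arrays. The KY-2 groups did not overlap and the KY-1 groups did, and the differences were -0.14 ± 0.08 (SE) and -0.11 ± 0.08 (SE), neither called. Tox, an HMG-box factor of early NK development, was read at 9.06, 9.10 and 9.14 in the KY-2 Myb arrays, against 9.27 and 9.28 in the KY-2 GFP arrays. Its KY-1 readings were 9.41, 9.29, 9.23 and 9.23 with Myb, against 9.16, 9.20 and 9.24 with GFP. The KY-2 arrays with Myb lay below those with GFP, while the KY-1 groups overlapped, and the differences of -0.18 ± 0.08 (SE) in KY-2 and 0.10 ± 0.08 (SE) in KY-1 did not pass the test.

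Of the factors that tune effector state, Prdm1 was read at 6.80, 6.72 and 6.91 in the KY-2 Myb arrays, against 7.34 and 6.99 in the KY-2 GFP arrays. The groups did not overlap, by a gap that was small beside the distance between the 2 GFP arrays, and the difference was -0.36 ± 0.11 (SE) with a limma adjusted p of 0.134. In KY-1 its readings ran from 6.82 to 6.91 with Myb, against 6.91 to 6.95 with GFP. Runx3, which works with T-box factors at cytotoxic genes, was read at 9.29, 9.17 and 9.33 in the KY-2 Myb arrays, against 9.43 and 9.28 in the KY-2 GFP arrays, and at 9.71, 9.65, 9.47 and 9.45 in the KY-1 Myb arrays, against 9.50, 9.52 and 9.70 in the KY-1 GFP arrays. These groups overlapped in both lines, as did those of Bach2, whose Myb differences were -0.02 ± 0.14 (SE) in KY-2 and -0.00 ± 0.14 (SE) in KY-1.

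Counted by overlap alone, 6 of the 10 factors in KY-2 had all Myb replicates on one side of all GFP replicates (2 higher and 4 lower), where 31.0% of all genes did. In KY-1 there were 3 (1 higher and 2 lower), where 26.9% of all genes did. The typical size of a difference, as the median of its absolute value, was 0.14 for the factors in KY-2 and 0.11 in KY-1, against 0.10 and 0.09 over all genes.

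**Figure D2:**
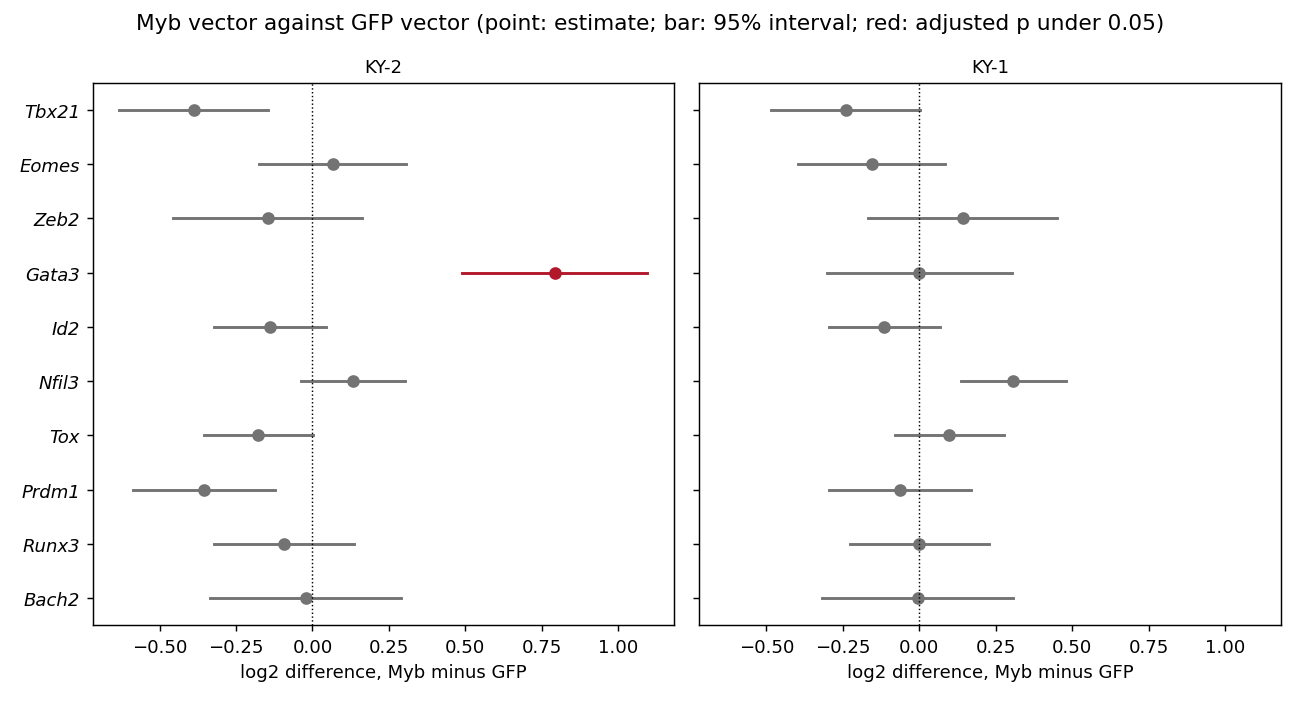
Difference in log2 expression between Myb and GFP for each factor, in KY-2 and in KY-1, with points for the fitted difference and bars for its 95% interval. The interval of Gata3 in KY-2, from 0.49 to 1.10, lies apart from 0, and Gata3 in KY-1 is centred on 0.00. The intervals of Tbx21 (-0.63 to -0.14) and Prdm1 (-0.59 to -0.12) in KY-2 also lie apart from 0. So does that of Nfil3 in KY-1 (0.14 to 0.48), and none of these was called after adjustment.

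With both lines averaged at equal weight, 0 of the 10 factors passed limma's test, against 3.10% of all genes, and 4 had an unadjusted p under 0.05, against 13.8% of all genes. The 3 nearest to the threshold were Gata3 at 0.40 ± 0.10 (SE) with an adjusted p of 0.0555, Nfil3 at 0.22 ± 0.05 (SE) with 0.0596, and Tbx21 at -0.31 ± 0.08 (SE) with 0.0597. All 3 passed it when dim genes were left out, with a trended prior variance, and with all 12 arrays as separate replicates. Without KY-2 Myb replicate 2, its lowest Myb reading in KY-2, the averaged Gata3 difference was 0.47 with an adjusted p of 0.0101. No other replicate left out gave a call, and over all alternatives the averaged Gata3 difference ran from 0.32 to 0.47.

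Whether the factors responded differently in the lines was tested directly, as the Myb difference in KY-2 minus that in KY-1. None of the 10 passed limma's test, against 0.843% of all genes, and 2, Gata3 and Tox, had an unadjusted p under 0.05, against 10.3% of all genes. Gata3 gave 0.79 ± 0.19 (SE), with a 95% interval of 0.37 to 1.22 and an adjusted p of 0.113. Its call in KY-2 and the lack of one in KY-1 are thus not shown to be a difference between the lines at this threshold. Without KY-2 Myb replicate 2, the lowest of the 3 Myb readings in KY-2, the same test gave 0.94 with an adjusted p of 0.0252. Dropping the lowest reading must raise this difference, and no other replicate left out gave a call. Over all alternatives the Gata3 value ran from 0.65 to 0.94.

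The second question was how the lines themselves differ in these factors, KY-2 set against KY-1 with the same vector. KY-2 with GFP had more Eomes, Zeb2 and Id2 and less Tbx21 and Gata3 than KY-1 with GFP, which is 5 of 10 factors called (3 higher and 2 lower). The lines differ widely in general, with 28.9% of all genes called, 13.6% higher and 15.2% lower. With the Myb vector 7 of 10 were called, the same 5 in the same directions and also Runx3 and Tox, both lower in KY-2 cells, where 31.6% of all genes were called, 14.7% higher and 16.9% lower. These comparisons with GFP share the GFP arrays with the Myb comparisons above.

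Eomes was the clearest example. It averaged 7.30 ± 0.17 (SD, n = 2) in KY-2 with GFP, against 4.86 ± 0.19 (SD, n = 2) in KY-1 with GFP, a 5.43-fold difference (2.44 ± 0.12 SE, limma adjusted p = 5.91e-08). With Myb it averaged 7.37 ± 0.10 (SD, n = 3) in KY-2, against 4.71 ± 0.07 (SD, n = 3) in KY-1, a 6.33-fold difference. The 5 KY-2 arrays lay between 7.18 and 7.47 and the 7 KY-1 arrays between 4.61 and 5.07, with nothing in between. Since the KY-1 readings of Eomes, like those of Zeb2, lay below the array medians with no measured background, these folds are ratios of readings and may understate the RNA difference. Zeb2 followed the same pattern, at 6.52 ± 0.12 (SD, n = 2) in KY-2 with GFP, against 3.99 ± 0.39 (SD, n = 2) in KY-1 with GFP, a difference of 2.54 ± 0.15 (SE) with a limma adjusted p of 3.46e-07. With Myb the difference was 2.25 ± 0.13 (SE), or 4.76-fold.

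The stretches before the starts of these genes are shown because both factors stood on one side in KY-2 and on the other in KY-1. They are 250 bases at chr9:118477939-118478188 (plus strand) for Eomes and at chr2:45117443-45117692 (minus strand) for the outermost of the 4 Zeb2 starts in the table, both of GRCm38.p6. Neither held a match to the motifs searched, so both are printed in lower case throughout.

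Eomes: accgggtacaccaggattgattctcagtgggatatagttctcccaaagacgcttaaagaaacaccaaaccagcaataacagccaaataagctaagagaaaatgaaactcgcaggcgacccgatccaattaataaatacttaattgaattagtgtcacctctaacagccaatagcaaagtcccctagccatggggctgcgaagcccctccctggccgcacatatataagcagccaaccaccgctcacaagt

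Zeb2: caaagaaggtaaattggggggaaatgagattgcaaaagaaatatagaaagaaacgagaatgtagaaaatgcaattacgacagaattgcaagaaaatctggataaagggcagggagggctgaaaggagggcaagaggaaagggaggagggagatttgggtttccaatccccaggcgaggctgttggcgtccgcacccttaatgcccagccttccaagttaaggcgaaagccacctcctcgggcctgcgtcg

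Id2 was higher in KY-2 by a smaller amount. It averaged 11.83 ± 0.05 (SD, n = 2) in KY-2 with GFP, against 11.14 ± 0.11 (SD, n = 2) in KY-1 with GFP, a difference of 0.68 ± 0.09 (SE) with a limma adjusted p of 0.000168. With Myb it was 0.66 ± 0.07 (SE), or 1.58-fold. The KY-2 and KY-1 arrays did not overlap under either vector.

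Tbx21 ran the other way from its paralog Eomes. It averaged 7.98 ± 0.12 (SD, n = 2) in KY-2 with GFP, against 8.60 ± 0.06 (SD, n = 2) in KY-1 with GFP, which is 1.54-fold lower (-0.62 ± 0.12 SE, limma adjusted p = 0.00252). With Myb it averaged 7.60 ± 0.10 (SD, n = 3) in KY-2, against 8.36 ± 0.17 (SD, n = 3) in KY-1, which is 1.70-fold lower. The order of levels from low to high was KY-2 Myb, KY-2 GFP, KY-1 Myb and KY-1 GFP, in which the lines differed by the test and the vectors within a line did not pass it. The neighbours KY-2 GFP and KY-1 Myb did not overlap and were not tested against each other.

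The sequence before the Tbx21 start, 250 bases at chr11:97115332-97115581 of GRCm38.p6 (minus strand), is shown beside that of Eomes because these related factors took opposite directions between the lines. The capitals mark its single match, to the E2-box CAGGTG, with its first base 196 bases before the start.

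Tbx21: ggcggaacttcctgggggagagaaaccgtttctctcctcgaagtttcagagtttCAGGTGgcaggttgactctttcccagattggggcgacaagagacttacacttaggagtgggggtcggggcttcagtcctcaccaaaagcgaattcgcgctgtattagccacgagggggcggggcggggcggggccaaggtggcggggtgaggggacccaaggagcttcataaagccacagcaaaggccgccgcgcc

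Gata3 was 1.39-fold lower in KY-2 with Myb than in KY-1 with Myb (-0.47 ± 0.12 SE, limma adjusted p = 0.0119). With GFP it was 2.40-fold lower in KY-2 than in KY-1 (-1.26 ± 0.15 SE, limma adjusted p = 7.30e-05). The 2.40-fold also rests on KY-2 GFP readings close to the array medians. The gap between these line differences is the 0.79 that did not pass the test of the Myb effects against each other. KY-2 GFP was the lowest group, then KY-2 Myb, and the KY-1 groups shared the highest mean, 6.72.

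The remaining factors differed little between the lines. Runx3 was lower with Myb in KY-2 cells (-0.34 ± 0.09 SE, limma adjusted p = 0.0147), and at -0.25 ± 0.11 (SE) with GFP it did not pass, with an adjusted p of 0.131. The Runx3 call was lost without KY-1 Myb replicate 1 (adjusted p = 0.0606) and without KY-2 Myb replicate 2 (adjusted p = 0.0593). Tox with Myb was lower in KY-2 cells (-0.21 ± 0.07 SE, limma adjusted p = 0.0447), a call that 12 of 18 alternatives lost, among them 9 that each left out 1 replicate, with adjusted p from 0.0575 to 0.155. Nfil3 did not pass under either vector, at -0.19 ± 0.07 (SE) with Myb and -0.02 ± 0.08 (SE) with GFP. Prdm1 gave -0.05 ± 0.09 (SE) with Myb and 0.24 ± 0.12 (SE) with GFP, and passed with GFP only when KY-2 GFP replicate 2 was left out (0.41, adjusted p = 0.0300). Bach2 differed by 0.01 ± 0.16 (SE) with GFP, from low readings in both lines.

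Counted by overlap, 8 of 10 factors had all KY-2 replicates on one side of all KY-1 replicates with Myb, where 42.3% of all genes did, and 9 of 10 with GFP, where 62.9% of all genes did. The median absolute difference of the factors between the lines was 0.41 with Myb and 0.43 with GFP, against 0.16 and 0.19 over all genes. Unadjusted p lay under 0.05 for 8 factors with Myb and 6 with GFP, against 39.7% and 38.0% of all genes.

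**Figure D3:**
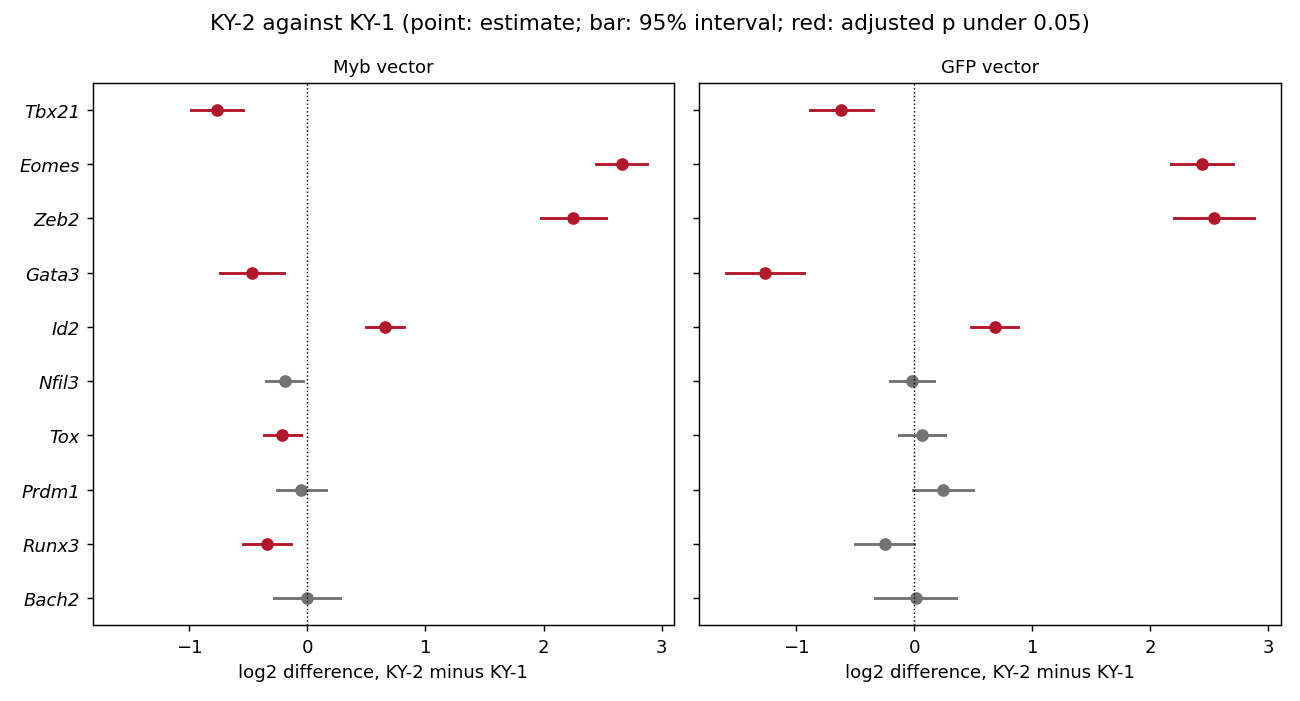
Difference in log2 expression between KY-2 and KY-1 for each factor, with the Myb vector and with the GFP vector, with points for the fitted difference and bars for its 95% interval. Eomes and Zeb2 lie above 2 under both vectors, and Gata3 lies below 0 with Myb (-0.47) and with GFP (-1.26).

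Markers of other cells moved with the line. Of 10 T cell markers, 5 were higher and 1 lower in KY-2 with GFP than in KY-1 with GFP. In that comparison 13.6% of all genes were called higher and 15.2% lower. The summed log2 level of the 10 T cell markers ran over replicates from 67.8 to 69.4 in KY-2 Myb. It ran from 68.6 to 69.3 in KY-2 GFP, from 50.5 to 51.4 in KY-1 Myb and from 48.9 to 49.5 in KY-1 GFP. Cd3g averaged 12.30 in KY-2 with GFP, against 4.62 in KY-1 with GFP, and Cd8a averaged 11.00 against 5.07. The 1 lower marker was Cd3e, another CD3 chain, at 5.32 in KY-2 with GFP, against 6.22 in KY-1 with GFP (limma adjusted p = 0.00346). Cd4, Cd5, Cd8b1 and Themis lay below the array medians in all groups. The NK cell receptor gene Ncr1 averaged 5.43 in KY-2 with GFP, about the array medians, against 9.72 in KY-1 with GFP, while 10 of 12 NK markers stood above 8 in each of these groups. Of the mast cell and basophil markers, 0 were higher and 3 of 7 were lower in KY-2 with GFP. No B cell, myeloid, ILC2 or ILC3 marker measured stood above 8 in any group. The part of these markers in the line differences of the factors was not tested.

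Within each line the NK markers moved with Myb as well. In KY-2 with Myb 4 of 12 were lower and none higher than with GFP, with sums of 119 with Myb (highest replicate) against 122 with GFP (lowest replicate). In KY-1 with Myb 2 were lower and 1 higher, with sums of 121.7 with Myb (highest replicate) against 123.5 with GFP (lowest replicate). Of all genes, 2.83% were called in KY-2 and 1.22% in KY-1. Ncr1 differed by -1.96 ± 0.17 in KY-1 (SE, limma adjusted p = 0.000227) and was not called in KY-2. T cell markers called with Myb were 1 higher and 2 lower in KY-2 and 1 higher in KY-1. The KY-1 call was Cd3g, higher by 2.52 ± 0.21 (SE, limma adjusted p = 0.000167). Its KY-1 GFP mean of 4.62 lay below the array medians. Of the 7 mast cell and basophil markers, none was called in KY-2 and 2 were higher in KY-1 with Myb, Mcpt8 by 1.76 ± 0.17 (SE, limma adjusted p = 0.000508) and Cpa3 by 1.10 ± 0.21 (SE, limma adjusted p = 0.0331). The sum of these 7 ran from 37.4 to 38.4 in KY-1 Myb, against 35.5 to 35.6 in KY-1 GFP. The part of these markers in the differences with Myb was not tested.

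For the 4 factors whose group means spanned at least 1 log2 unit, the genes with the most similar profile were found by Pearson correlation over the 10 replicates, among 1325 genes with a span as wide. The replicates fall into the 2 lines, so these values describe mainly the line difference. Eomes was most like Tph1 (r = 0.998), Cd28 (r = 0.997) and Agap1 (r = 0.997). Zeb2 was most like Snap29 (r = 0.999), Nenf (r = 0.998) and Npy2r (r = 0.998), and Eomes and Zeb2 correlated with each other at 0.99. Cd28, the T cell costimulatory receptor, averaged 9.48 in KY-2 with GFP, against 4.29 in KY-1 with GFP. Tbx21 was most like Bcl3 (r = 0.984), Ets1 (r = 0.980) and Zmat4 (r = 0.979). Ets1, a factor needed for NK cell development, averaged 6.51 in KY-2 Myb, 7.30 in KY-2 GFP, 7.94 in KY-1 Myb and 8.49 in KY-1 GFP, which is the order of Tbx21. Gata3 was most like Crybg3 (r = 0.969), P2rx4 (r = 0.967) and Myl10 (r = 0.961), which, like Gata3, had their lowest mean in KY-2 GFP. P2rx4, an ATP-gated ion channel, averaged 7.75 in KY-2 Myb, 6.24 in KY-2 GFP, 8.85 in KY-1 Myb and 8.55 in KY-1 GFP.

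The genes around the factors were described through lists of partners, paralogs, other lymphoid regulators and reported downstream genes. Of all genes, 2.83% were called with Myb in KY-2 and 1.22% in KY-1. An unadjusted p under 0.05 was held by 13.2% of all genes in KY-2 and 11.0% in KY-1. The partners, such as the E proteins bound by Id2, had 0 of 8 called with Myb in KY-2 and 0 of 8 in KY-1 by limma, also with 0 at an unadjusted p under 0.05 in both. At an unadjusted p under 0.05 the paralogs had 6 of 34 in KY-2 and 2 of 34 in KY-1. By the adjusted test 1 of 34 was called in KY-2, near the share of all genes, and 0 of 34 in KY-1. The 1 was Id3, the E protein inhibitor related to Id2, which averaged 7.11 ± 0.10 (SD, n = 3) in KY-2 with Myb, against 6.71 ± 0.03 (SD, n = 2) with GFP, a difference of 0.40 ± 0.09 (SE, adjusted p = 0.0307). That call was lost without KY-2 GFP replicate 1 (adjusted p = 0.187), KY-2 GFP replicate 2 (0.189), KY-2 Myb replicate 2 (0.0908) or KY-2 Myb replicate 3 (0.107), and also with arrays centred on their medians (0.106) or with only the arrays compared (0.0926).

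Of the other transcription factors of NK and innate lymphoid cells, 2 of 25 rose and 4 fell in KY-2 with Myb, where 2.83% of all genes were called. The list median was -0.01 against 0.01 over all genes, and 11 had an unadjusted p under 0.05, against 13.2% of all genes. Ikzf2 (Helios) rose by 0.79 ± 0.09 (SE, limma adjusted p = 0.000662), with 6.83 ± 0.12 (SD, n = 3) in KY-2 with Myb, against 6.04 ± 0.01 (SD, n = 2) with GFP. Rora, a factor of the ILC2 lineage, rose by 0.52 ± 0.10 (SE, limma adjusted p = 0.0136). Ikzf3 (Aiolos) differed by -0.87 ± 0.11 (SE), Ets1 by -0.79 ± 0.13 (SE), Stat4, which carries the interleukin 12 signal, by -0.65 ± 0.08 (SE) and Zbtb32, a factor of NK cell proliferation in infection, by -0.61 ± 0.09 (SE), all called lower. In KY-1 with Myb, 2 of 25 rose, Zbtb32 by 0.73 ± 0.09 (SE) and Smad3, which carries the TGF-beta signal, by 0.43 ± 0.08 (SE), where 1.22% of all genes were called. At an unadjusted p under 0.05 there were 8, against 11.0% of all genes. Zbtb32 thus fell in KY-2 and rose in KY-1. Calls of this list that leaving out 1 replicate ended in KY-2 were Zbtb32 and Ets1 without KY-2 GFP replicate 1 (adjusted p = 0.0771 and 0.103) and Rora without either KY-2 GFP replicate (0.0825 and 0.131). In KY-1 they were Zbtb32 without KY-1 GFP replicate 3 (0.0507) and Smad3 without any 1 of 7 replicates (0.0565 to 0.254), including each KY-1 Myb, each KY-1 GFP and each KY-2 GFP replicate. Rora, Smad3, Il2rb and Itga2 lie outside the rule for named genes and were named after their values were seen. Ets1 lies outside the part of that rule for lists and was named as 1 of the 3 genes most like Tbx21.

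Genes reported downstream of T-bet, Eomes, Zeb2 or Runx3 had 5 of 14 called lower and 0 higher in KY-2 with Myb, where 309 of all genes were called lower and 2.83% in either direction. The list median was -0.22 against 0.01 over all genes. In KY-1 there was 1 higher and 1 lower, where 1.22% of all genes were called, with a median of -0.04. The factors named in the list were themselves not called for Myb in either line. Tbx21 was near a call in KY-2, with an unadjusted limma p of 0.00494. It passed there with dim genes left out (adjusted p = 0.0430) and with a trended prior variance (0.0248). The part of the factors in these differences was not tested. Ifng, the interferon gamma gene, averaged 9.89 ± 0.05 (SD, n = 3) in KY-2 with Myb, against 10.77 ± 0.15 (SD, n = 2) with GFP, a difference of -0.87 ± 0.09 (SE, limma adjusted p = 0.000350). In KY-1 it averaged 7.95 ± 0.07 (SD, n = 3) with Myb, against 8.49 ± 0.11 (SD, n = 2) with GFP, a difference of -0.54 ± 0.09 (SE, limma adjusted p = 0.0190). Prf1, the pore-forming perforin, fell by 0.82 in KY-2, and Cxcr3, a chemokine receptor, fell by 0.87, both with an SE of 0.09 to 0.11. In KY-1 they gave 0.18 and -0.04, neither called. Il2rb, the receptor chain shared by interleukins 2 and 15, and Itga2, an integrin of mature NK cells, fell by 0.40 and 0.57 in KY-2. Itgae, the CD103 integrin, rose by 0.78 ± 0.14 (SE) in KY-1. Prf1, Il2rb and Itga2 stand among the NK markers as well.

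The KY-2 calls of Ifng, Prf1 and Cxcr3 held without each replicate in turn. Those of Il2rb and Itga2 did not, without KY-2 GFP replicate 1 (adjusted p = 0.308 and 0.265), KY-2 GFP replicate 2 (0.145 and 0.142), KY-2 Myb replicate 1 (0.114 and 0.107) or KY-2 Myb replicate 2 (0.0930 and 0.103), and Il2rb also not without KY-2 Myb replicate 3 (0.0888) or KY-1 Myb replicate 2 (0.0513). In KY-1 the calls of Ifng and Itgae were lost without KY-1 GFP replicate 1 and 2 (adjusted p = 0.193 and 0.114), KY-1 GFP replicate 3 (0.0756 and 0.184), KY-1 Myb replicate 1 (0.0682 and 0.0837) or KY-1 Myb replicate 2 (0.0631 and 0.0686).

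The type 2 genes reported downstream of Gata3 were measured as 8 genes, and 0 were called with Myb in KY-2 or in KY-1 by limma. At an unadjusted p under 0.05 there were 0 in KY-2, the line in which Gata3 rose, and 2 in KY-1. The shares of all genes at that level were 13.2% and 11.0%. By the adjusted test they were 2.83% in KY-2, 1.22% in KY-1 and 3.10% with both lines averaged. Of the genes reported as repressed by Blimp-1, 1 of 8 (Id3) was higher in KY-2 and 0 of 8 were called in KY-1. Of the E protein targets held down by Id2, 1 of 5 (again Id3, which stands in 3 of the lists) was higher in KY-2 and 0 of 5 in KY-1. With both lines averaged, Ccr7, a lymph node homing receptor held in both of these lists, rose by 0.26 ± 0.06 (SE, limma adjusted p = 0.0311), a call lost with arrays centred on their medians and without any 1 of 8 of the 10 replicates (adjusted p from 0.0579 to 0.125). Among ILC1 and tissue residency genes, Cxcr6, a chemokine receptor of resident lymphocytes, fell by 0.45 in KY-2 and by 0.56 in KY-1. The KY-2 call was lost without KY-2 GFP replicate 1 (0.139) or 2 (0.0916), and the KY-1 call without KY-1 GFP replicate 1 and 2 (0.104). The other 8 of 9 in KY-2 were not called, and in KY-1 Itgae, which this list also holds, was the other call. Rgs1, a regulator of G protein signals, passed with both lines averaged (-0.32 ± 0.07 SE, limma adjusted p = 0.0258), and lost the call without any 1 of 5 replicates (0.0515 to 0.143).

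Between the lines with GFP, KY-2 against KY-1, the downstream list had 6 of 14 higher and 2 lower. Ifng was higher by 2.27 ± 0.10 (SE) and Prf1 by 2.26 ± 0.10 (SE), while Cxcr3 was lower by -0.75 ± 0.12 (SE) and Il2rb by -0.40 ± 0.10 (SE). Id3 was lower by -1.65 ± 0.09 (SE), the opposite direction to Id2. Other lymphoid factors had 6 of 25 higher and 5 lower, and the type 2 list had 2 of 8 higher and 1 lower, where 28.9% of all genes were called.

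**Figure D4:**
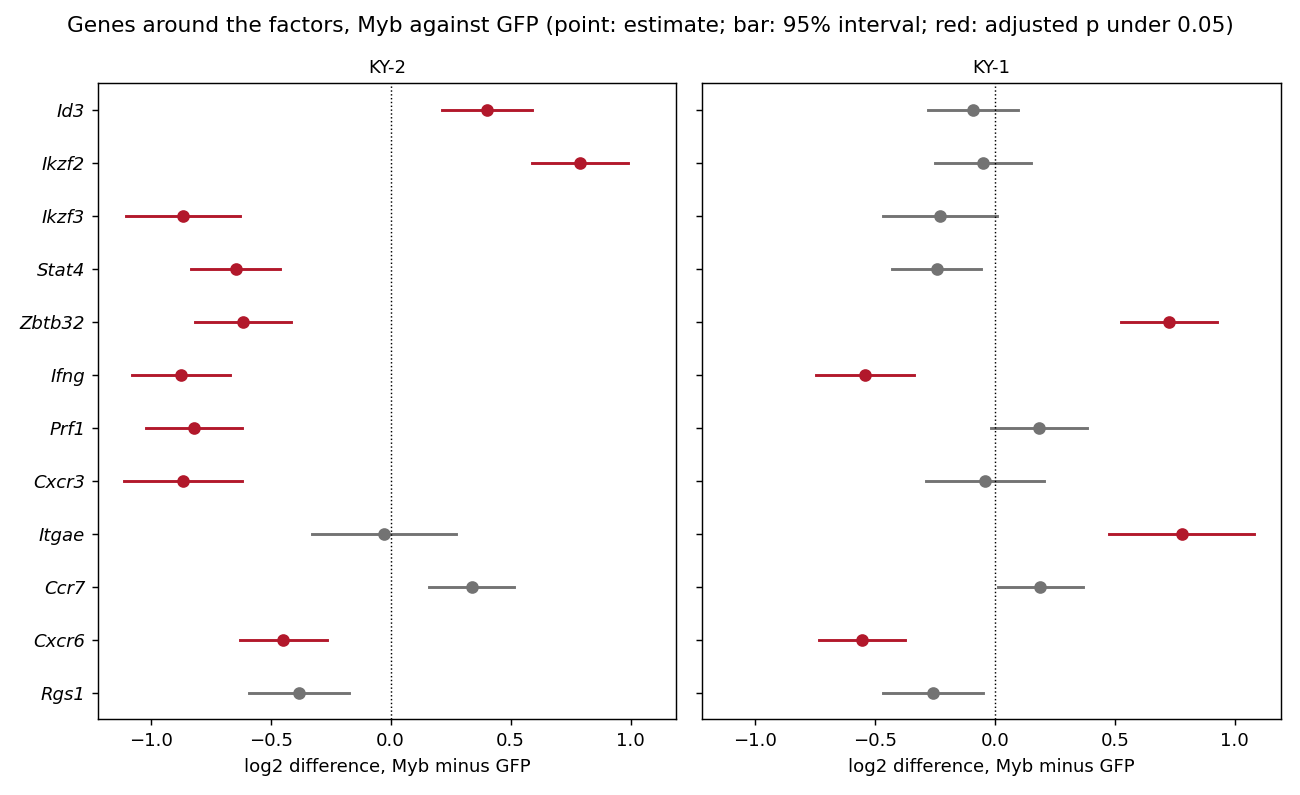
Difference in log2 expression between Myb and GFP for the named genes of the lists around the factors, in KY-2 and in KY-1, with points for the fitted difference and bars for its 95% interval. The intervals of Ifng, Cxcr6, Stat4 and Rgs1 lie below 0 in both lines, and those of Ccr7 lie above 0 in both. Of these genes only Ifng and Cxcr6 were called in both lines. Zbtb32 lies below 0 in KY-2 (-0.61) and above 0 in KY-1 (0.73).

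The 250 bases before each RefSeq start were searched on both strands for short motifs of the factor families concerned. Windows were found for 9 of the 10 factors, 13 windows in all, with no entry for Tox. The only windows of Gata3, Nfil3, Prdm1 and Bach2 lie inside the annotated span of their gene. The bases before the outer end of these genes were thus not searched. The Myb motifs CAACGG, also CAACTG, also TAACGG, also TAACTG matched 0 of the 13 windows, where 23.7% of 32851 windows of all genes held one. The motifs of the GATA family, which were AGATAA, also AGATAG, also TGATAA, also TGATAG, matched 1, that of Bach2, where 26.5% of all windows held one. The Runx motifs ACCACA and ACCGCA matched 1, the window of the outer Runx3 start, which held ACCACA at 134 and again at 126 bases before it, where 18.6% of all windows held one. The E2-box, CAGGTG or its reverse complement CACCTG and a sequence that Zeb factors and E proteins can bind, matched 3, those of Tbx21, Prdm1 and Runx3, where 17.2% of all windows held one. No matches overlapped. A match is letters in a window and not a binding site, and the lack of one says only that these letters are not in that window.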

How the data were processed

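Expression was measured on 12 Affymetrix arrays. The authors deposited 1 log2 value per probe set and array, and the submitters' processing notes name Partek and RMA; the sources used here give no options, versions or filters. RMA normalizes between arrays and compresses low signals. Of 35556 probe sets, 21789 had 1 gene symbol, and the brightest probe set per gene gave 19938 genes, tested with no filter on dim signals. Close array pairs were averaged, leaving 10 replicates; the number of arrays limits the precision. One linear model of 4 group means was fitted with limma 3.58.1 in R 4.3.3 (6 residual degrees of freedom, prior 4.89). Tests were two-sided, with p-values adjusted by Benjamini-Hochberg across the genes at a threshold of 0.05. The fit was also run on simulated data with independent noise, which cannot test whether the replicates are independent.

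All 10 factors were named, up to 4 genes per list by smallest p among those called, and the 3 genes most like each factor spanning 1 log2 unit. The members and lists were chosen with earlier results of these data known. Upstream windows are from the RefSeq table of GRCm38.p6. Alternatives were a trended prior variance, the mean of probe sets, median centring, a second quantile normalization, leaving out genes with a mean under 5.5, all 12 arrays as separate replicates, a replicate block, only the arrays compared, and leaving out each replicate.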

Additional observations from a re-analysis of the deposited data

Results flagged for a closer look

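Among Myb, the 10 factors and the genes of the lists around them, 6 had a Myb difference that differed between the lines. The test was limma's, KY-2 minus KY-1, and it called 168 of all genes, or 0.843%. None of the 6 is one of the 10 factors. Cell type markers were outside this count unless those lists also held them. Markers outside it that the same test called included Cd3g at -2.63 (adjusted p = 0.00161), Mcpt8 at -1.93 (0.00309) and Ncr1 at 1.86 (0.00365). Gzma at -0.70 (0.01285), Cd3d at -0.84 (0.0297) and Lat at 0.67 (0.0316) were also called. Myb gave 3.11 on the log2 scale, with 4.69 in KY-2 and 1.58 in KY-1. Ikzf2 gave 0.84 (adjusted p = 0.00977), a call lost without KY-1 GFP replicate 3 (0.0645), KY-2 GFP replicate 1 (0.0584) or KY-2 GFP replicate 2 (0.05001). Rora gave 0.83 (adjusted p = 0.0145), lost without any 1 of the 4 GFP replicates (0.0512 to 0.0791). Zbtb32 gave -1.34 (adjusted p = 0.000397), with -0.61 in KY-2 and 0.73 in KY-1. Prf1 gave -1.003 (adjusted p = 0.00319), with -0.82 in KY-2 and 0.18 in KY-1. Cxcr3 gave -0.82 (adjusted p = 0.0383), lost without any 1 of 9 of the 10 replicates (0.0589 to 0.204). No group had the 4 replicates needed to test for a replicate far from the others.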

How the results depend on the processing

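Of the 13 called differences of the factors, 215 of 232 values under the alternatives kept direction and call, 17 lost the call and 0 reversed. The 17 were Tox (12) and Runx3 (2) between the lines with Myb and Gata3 (3) in KY-2. Of the 47 uncalled differences, 28 of 816 values gained a call and 48 changed sign without one. The count of called factors in KY-1 was 1 (Nfil3) against 0 with dim genes left out, with a trended prior variance and with all 12 arrays as separate replicates, and 0 without any replicate. In KY-2 the count was 2 against 1 with dim genes left out and with a trended prior variance, which added Tbx21 (adjusted p = 0.0430 and 0.0248), and 0 with only the arrays compared (Gata3 adjusted p = 0.0655). Leaving out a replicate gave 0 to 1. For the averaged lines it was 3 against 0 under the same 3 alternatives as in KY-1, 1 with a second quantile normalization (Nfil3) and 1 with a replicate block (Gata3, adjusted p = 0.0412), and 0 to 1 when leaving out a replicate. For the difference of the Myb effects it was 1 (Gata3) against 0 under those 3 alternatives and 0 to 1 when leaving out a replicate. Between the lines it was 5 to 8 with Myb (leaving out a replicate, 5 to 7) and 4 to 6 with GFP (leaving out a replicate, 5 to 6), where the filter on dim genes left Zeb2 and Bach2 untested. Leaving out a GFP replicate left 1 in its group, assumed to vary like the other groups. Replicate numbers did not pair the arrays: correlations of deviations ran from -0.465 to 0.278 for the same number, with 2 of 15 above 0.1, and from -0.454 to 0.426 for other numbers, with 12 of 38. Those included KY-1 GFP arrays 1 and 2 with KY-1 Myb arrays 3 and 4 (0.383 to 0.395). KY-1 GFP array 3 went with KY-1 Myb arrays 1 (0.266) and 2 (0.426). Deviations from a group mean are tied to each other, so these values are not independent. A shared batch across numbers was not tested. The replicate block gave 1 factor in KY-2, 0 in KY-1, 6 between the lines with Myb, 5 with GFP and 0 for the difference. For Myb and the named genes of the lists, 1070 of 1168 values kept the call and 0 reversed. The replicate block ended the KY-2 calls of Id3 (adjusted p = 0.0663) and Il2rb (0.0728) and no other Myb call of these genes. With only the arrays compared, the KY-2 calls of Id3, Cxcr6 (0.0536), Il2rb (0.0595) and Itga2 (0.0589) and the KY-1 calls of Ifng (0.0679) and Smad3 (0.125) were lost. Centring on medians ended those of Id3 and of Smad3 (0.0681) and, for the averaged lines, of Ccr7 (0.0638). The second quantile normalization ended that of Cxcr3 for the difference of the Myb effects (0.0524). The limits are 2 GFP replicates per line and fold changes that RMA understates at low signal. There were also no detection calls for the low readings of Bach2, of Zeb2, Eomes and Ikzf2 in KY-1 and of Myb in KY-2 with GFP. The same holds for Gata3 in KY-2 with GFP, read close to the array medians.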
